A study of Bos taurus with 12 samples.

Results

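The contractile genes of smooth muscle and of pericytes, the contractile cells that wrap small vessels, were followed through the wall of the growing bovine ovarian follicle. The genes were ACTA2, MYH11, MYLK, CNN1, TAGLN and RGS5. All 6 had a probe set annotated to that symbol alone in the platform table, 7 probe sets in all (2 for MYLK) among 24128 on the array and 6 of 9155 genes with a probe set, and all 7 passed the filter on dim signals that left 17236 probe sets to test. A probe set is a group of array probes that reads 1 transcript.

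Smooth muscle contracts when calcium switches on myosin light chain kinase, which phosphorylates myosin so that it pulls on filaments of smooth muscle actin. Calponin and transgelin bind those filaments, and serum response factor with its partner myocardin drives many of the genes together. In the follicle the theca externa holds layers of such contractile cells and the vessels of the theca interna carry pericytes, while the granulosa inside the basement membrane has no vessels of its own.

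Total RNA came from granulosa cells and theca cells of small (5 mm or less), medium (5 to 10 mm) and large (over 10 mm) antral follicles of untreated young non-pregnant cycling heifers, from ovaries in the follicular stage without a corpus luteum. The design therefore had 6 groups of 2 Affymetrix arrays, 12 arrays in all, and each RNA was a pool. The labels speak of 20 to 40 follicles per pool, and the design text of 20 to 40 ovaries from 6 to 10 animals. Pools hide the spread between animals, and the labels do not say whether pools shared animals, so p-values measure the spread between pools.

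Values are array signals on a linear scale, and differences are log2 differences of signal + 16 with the standard error (SE) of the limma model, n = 2 arrays per group. A gene was called at an adjusted p under 0.05 over all tested probe sets. In bulk RNA, fewer cells of a type and less RNA per cell cannot be told apart. A signal of 22.5 marks the 40th percentile of all values and was the limit of the filter.

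The layers carried their own markers, with an overlap. The steroid enzyme CYP17A1 read 26.5 to 227.7 in the 6 granulosa arrays and 1785.8 to 5781.5 in the 6 theca arrays. The stroma gene OGN read 8.2 to 82.4 against 1228.3 to 2107.9. Other theca steroid cell markers did not separate the layers, such as CYP11A1 at 1560.2 to 3502.1 against 1390.6 to 3902.7. Of the 7 in that list 3 were called lower in granulosa over all sizes, as were 11.2% of all tested probe sets. The summed signal of 10 granulosa markers was 22510 to 35200 in granulosa and 8148 to 26060 in theca, so that this sum overlapped. A pair of arrays stood apart. On theca small replicate 1 the GAPDH control read 8.36 times higher at its 3' than at its 5' end (0.984 to 1.30 elsewhere), and on granulosa large replicate 1 the median signal was 48.7 (33.6 to 39.1 elsewhere) and HBB, a haemoglobin gene, read 578.5 (7.7 to 50.4 elsewhere).

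**Figure D1:**
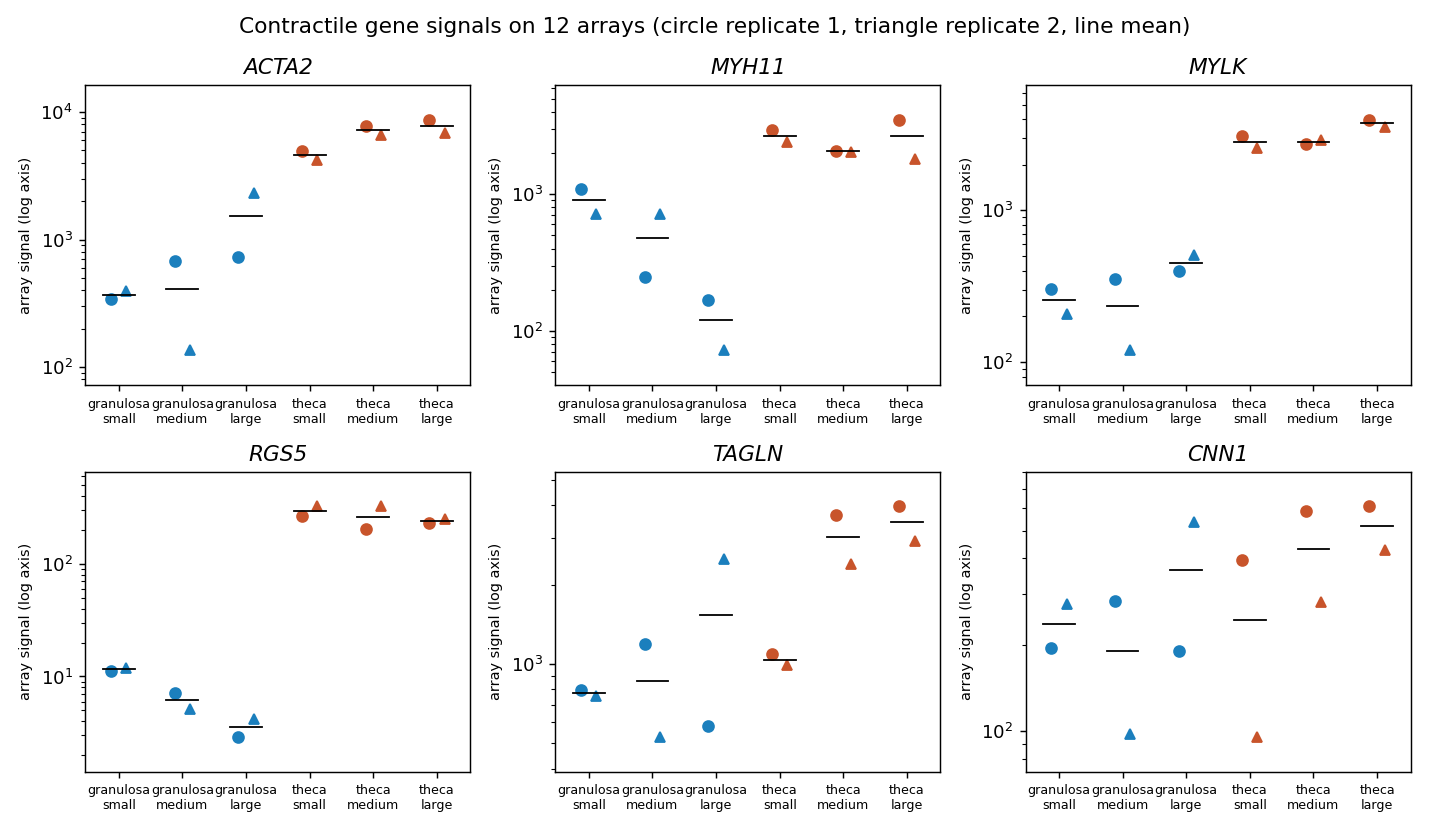
Array signal (log axis) of the brightest probe set of each gene in the 6 groups, with replicate 1 as a circle, replicate 2 as a triangle and the mean signal of the group as a line. Theca arrays (orange) lie above all granulosa arrays (blue) for ACTA2, MYH11, MYLK and RGS5, and the layers overlap for TAGLN and CNN1.

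Granulosa and theca were compared to describe how the layers of the wall differ. ACTA2, MYH11, MYLK, RGS5 and TAGLN were higher in theca, and CNN1 was not called. Over all sizes 5 of 6 were called lower in granulosa and none higher, in a comparison where 11.2% of all tested probe sets were called lower and 13.6% higher. RGS5, counted among the 5, was tested only through its theca signals. The median difference of the 6 was -3.04, and that of 7885 tested genes was 0.04. All 6 granulosa arrays lay below all 6 theca arrays for 4 genes (ACTA2, MYH11, MYLK and RGS5), a pattern that 5.22% of tested probe sets showed. The call of the 5 genes held in each of the 19 alternatives, including those without either array that stood apart.

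ACTA2 encodes the smooth muscle isoform of actin. Its signal was 342.9 and 394.3 in small, 682.6 and 135.1 in medium and 733.1 and 2339.0 in large granulosa, and 4980.9 and 4243.9 in small, 7727.4 and 6625.5 in medium and 8734.4 and 6889.9 in large theca. The theca arrays were all higher, and granulosa large replicate 2 was the granulosa array nearest to them. The difference over all sizes was -3.53 ± 0.35 (SE), an 11.6-fold higher level in theca (adjusted p = 8.14e-06). Within sizes it was -3.59 in small (adjusted p = 0.00257), -4.46 in medium (adjusted p = 0.000426) and -2.55 in large follicles (adjusted p = 0.0302). The call in large follicles was lost without granulosa large replicate 1, where the difference was -1.72 (adjusted p = 0.228), without theca large replicate 1 (adjusted p = 0.179), without theca large replicate 2 (adjusted p = 0.116), with a pseudocount of 1 (adjusted p = 0.101) and without the filter (adjusted p = 0.0556). Without both arrays that stood apart it was lost too (-1.72, adjusted p = 0.186).

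MYH11, the myosin heavy chain of differentiated smooth muscle, had a different course in the granulosa. It read 1096.9 and 711.6 in small, 246.8 and 715.1 in medium and 167.5 and 71.8 in large granulosa, against 2927.2 and 2395.5 in small, 2073.7 and 2034.3 in medium and 3518.7 and 1797.1 in large theca. Small replicate 1 was the highest granulosa array and the large pair were the lowest, while the large theca pair spanned the theca arrays of both other sizes. Over all sizes granulosa was lower by 2.71 on the log2 scale, 6.53-fold (SE 0.29, adjusted p = 1.73e-05). The difference was -1.57 in small (adjusted p = 0.0641, not called), -2.24 in medium (adjusted p = 0.0155) and -4.32 in large follicles (adjusted p = 0.000338). The call in medium follicles was lost without granulosa medium replicate 1 (-1.50, adjusted p = 0.154), without theca medium replicate 1 (adjusted p = 0.0909) or 2 (adjusted p = 0.115), and with a pseudocount of 1 (adjusted p = 0.0657). The value in small follicles passed without granulosa medium replicate 1 or 2 (adjusted p = 0.0394 each).

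MYLK encodes myosin light chain kinase, the calcium-dependent switch of contraction. Its brighter probe set read 304.2 and 205.6 in small, 349.9 and 119.0 in medium and 399.0 and 504.3 in large granulosa, and 3083.5 and 2564.7, 2758.7 and 2907.9, and 3981.4 and 3573.2 in theca of the same sizes. Theca was higher at each size with a wide gap. The difference was -3.37 ± 0.24 over all sizes (10.4-fold, adjusted p = 3.72e-07), and it was called in small (-3.41), medium (-3.68) and large follicles (-3.03, adjusted p = 0.00102). The second probe set gave -3.93 ± 0.27 (adjusted p = 2.78e-07). On that probe set theca small replicates 1 and 2 stood at 1486.3 and 444.5, a gap that the brighter probe set did not show. Replicate 1 is the array with the shifted GAPDH ratio, and the part of RNA quality in this gap was not tested.

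RGS5, a regulator of G-protein signalling used as a pericyte marker, was near the floor in granulosa. Signals there were 11.2 and 11.9 in small, 7.2 and 5.1 in medium and 2.9 and 4.2 in large follicles, all under the limit of 22.5. Theca read 266.1 and 322.2, 201.0 and 322.0, and 227.0 and 251.2. The layers were thus far apart and the theca values close together across sizes. The difference was -3.60 ± 0.18 (adjusted p = 3.13e-08) on the scale of signal + 16, and it was called at every size, between -3.49 and -3.71. The granulosa mean lay under the limit at each size, so RGS5 was tested only through its theca signals. Its p-value and calls are therefore no independent support for a layer difference. With the granulosa signals under the limit the size of the difference depends on the pseudocount, from -5.15 with 1 to -2.20 with 64, so no fold is given.

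TAGLN encodes transgelin, an actin-binding protein of smooth muscle that also appears in other cells that build stress fibres. Granulosa read 798.1 and 753.4 in small, 1189.4 and 526.3 in medium and 579.6 and 2499.8 in large follicles. Theca read 1088.6 and 988.0 in small, 3665.3 and 2393.7 in medium and 3968.9 and 2941.5 in large follicles. Granulosa large replicate 2 lay above 3 of the 6 theca arrays, so the layers overlapped. The difference over all sizes was -1.26 ± 0.32 (2.4-fold, adjusted p = 0.011). No single size was called: the value was -0.41 in small (adjusted p = 0.687), -1.88 in medium (adjusted p = 0.0625) and -1.49 in large follicles (adjusted p = 0.143). The large follicle value was -0.45 without granulosa large replicate 1 (adjusted p = 0.705), also without both arrays that stood apart (adjusted p = 0.647), and it was -2.53 and passed without granulosa large replicate 2 (adjusted p = 0.0147). The medium follicle value passed without granulosa large replicate 1 or 2 (adjusted p = 0.0137 each) and without both arrays that stood apart (adjusted p = 0.0117).

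CNN1, the calponin that restrains actomyosin in smooth muscle, showed no called difference. Its signals were 195.2 and 277.3 in small, 284.2 and 97.8 in medium and 190.9 and 537.1 in large granulosa, and 394.6 and 95.4, 583.6 and 282.6, and 607.6 and 428.0 in theca of the same sizes. The layers overlapped at each size, and replicates within a group lay far apart. The difference was -0.54 ± 0.37 over all sizes, with a 95% interval from -1.32 to 0.25 (adjusted p = 0.301). Without both arrays that stood apart it was 0.012 (adjusted p = 0.98). The pair in small theca, 394.6 and 95.4, included the array with the shifted GAPDH ratio, and the part of RNA quality in this gap was not tested.

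**Figure D2:**
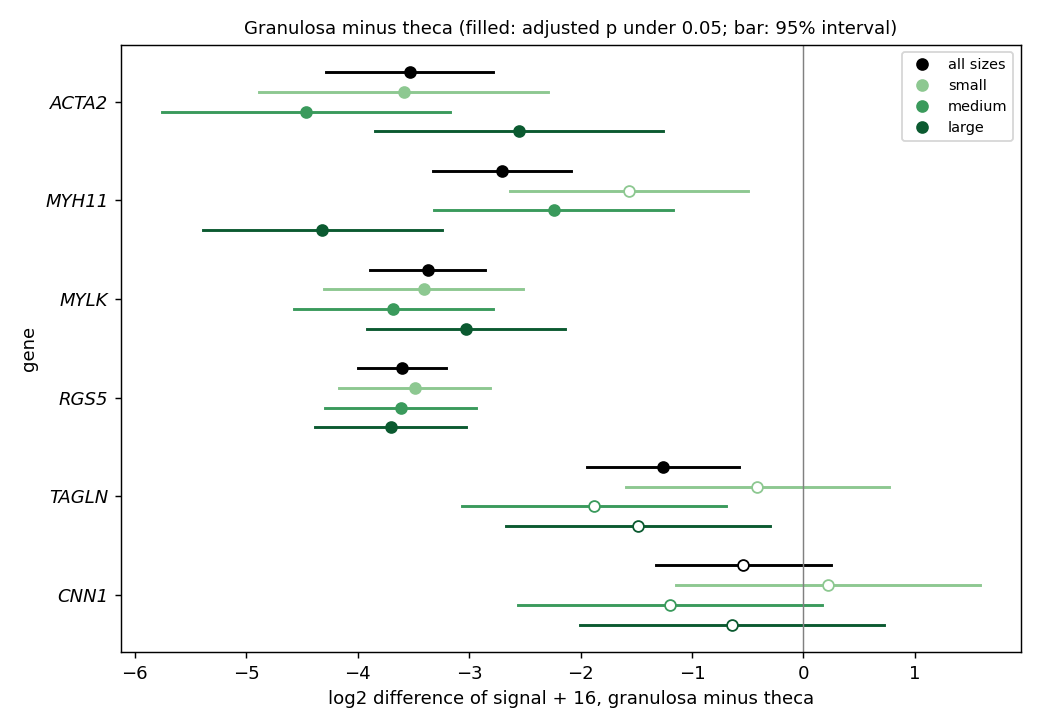
Log2 difference of signal + 16, granulosa minus theca, for each gene over all sizes and within each size, with 95% intervals and filled points for an adjusted p under 0.05. ACTA2, MYLK and RGS5 are filled in all 4 comparisons, MYH11 in 3, TAGLN in the one over all sizes and CNN1 in none.

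By size, 3 of 6 genes were called lower in granulosa in small follicles, 4 in medium and 4 in large follicles. Each count includes RGS5, which was tested only through its theca signals. The share of all tested probe sets called lower was 5.08%, 4.21% and 2.39% in turn. Across the alternatives the counts were 3 or 4 in small, 3 to 5 in medium and 3 to 5 in large follicles. Summed markers of other theca wall cells were mostly higher in theca, but not each gene in the lists was. The summed signal of 10 fibroblast and stroma markers was 2074 to 9032 in granulosa and 24220 to 32240 in theca. That of 11 endothelial markers was 169.7 to 738.6 against 656.5 to 2189, and that of 7 theca steroid cell markers 5518 to 8613 against 13620 to 24880. Over all sizes 9 of 10 tested fibroblast, 8 of 10 endothelial and 3 of 7 theca steroid genes were called lower in granulosa. Their medians were -3.30, -1.92 and -0.28, and 11.2% of all tested probe sets were called lower. In large follicles 6, 0 and 2 genes were called lower in turn. No marker of the 3 lists was at 0 in the mean of any group, but many lay under the filter limit. Of 11 endothelial markers 7, 6 and 4 had a mean under it in small, medium and large granulosa, and 2, 1 and 2 in theca. For the fibroblast list these counts were 2, 2 and 1 in granulosa, and for the theca steroid list 1, 1 and 0, with 0 in theca for both. The size of such differences depends on the pseudocount. The part of these cell types in the layer difference was not tested.

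The size comparison within granulosa asked how the layer changes as the follicle grows. MYH11 fell by 2.83 on the log2 scale from small to large follicles, 7.09-fold (SE 0.50, adjusted p = 0.0103). It was the only gene of the 6 called, where 0.4% of all tested probe sets were called as falls and 2.22% in either direction. Its signals were 167.5 and 71.8 in large and 1096.9 and 711.6 in small granulosa. The call depended on single arrays: the adjusted p was 0.145 when the first small granulosa array was left out, 0.0582 when the second was, and 0.0587 without the first large one. In those fits the log2 difference lay between -3.36 and -2.52. Without both arrays that stood apart the call was kept (-3.36, adjusted p = 0.0384). The medium against small difference was -1.04 (adjusted p = 1) and the large against medium difference -1.79 (adjusted p = 0.124).

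The other filament gene moved to the opposite side without passing. ACTA2 was 1.79 ± 0.60 higher in large than in small granulosa, with a 95% interval from 0.50 to 3.08 (adjusted p = 0.162). It was 2.03 higher in large than in medium granulosa (adjusted p = 0.153). Single arrays set the size of both values. Large against small was 0.96 without granulosa large replicate 2 (adjusted p = 0.481). Large against medium was 0.93 without granulosa medium replicate 2 (adjusted p = 0.938) and 1.21 without granulosa large replicate 2 (adjusted p = 0.411), but 3.14 and past the threshold without granulosa medium replicate 1 (adjusted p = 0.0337). MYLK was 0.80 ± 0.42 higher in large than in small granulosa (adjusted p = 0.4). TAGLN gave 0.63 (adjusted p = 0.656) and CNN1 0.44 (adjusted p = 0.805). Both turned negative without granulosa large replicate 2, at -0.41 and -0.27. RGS5 gave -0.50 (adjusted p = 0.512), between signals that were all under the filter limit.

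Single granulosa arrays carried much of the spread. Granulosa large replicate 2 held the highest granulosa signals of ACTA2, MYLK, TAGLN and CNN1 and the lowest of MYH11. Granulosa medium replicate 2 held the lowest signals of ACTA2, MYLK, TAGLN and CNN1 but, at 715.1, the second highest of MYH11. On that array the fibroblast and stroma sum was also the lowest in granulosa, 2074 against 4260 to 9032. Small and large granulosa overlapped in this sum (4870 and 6656 against 4260 and 7702) and in the theca steroid cell sum (5713 and 6076 against 5518 and 7873). In large granulosa the sum of 7 macrophage and blood myeloid markers was 12060 and 4706 against 421 and 415 in small, the endothelial sum 739 and 535 against 320 and 401, and the red blood cell sum of 3 genes 648 and 67 against 28 and 37. The part of these cells in the changes of the contractile genes was not tested.

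**Figure D3:**
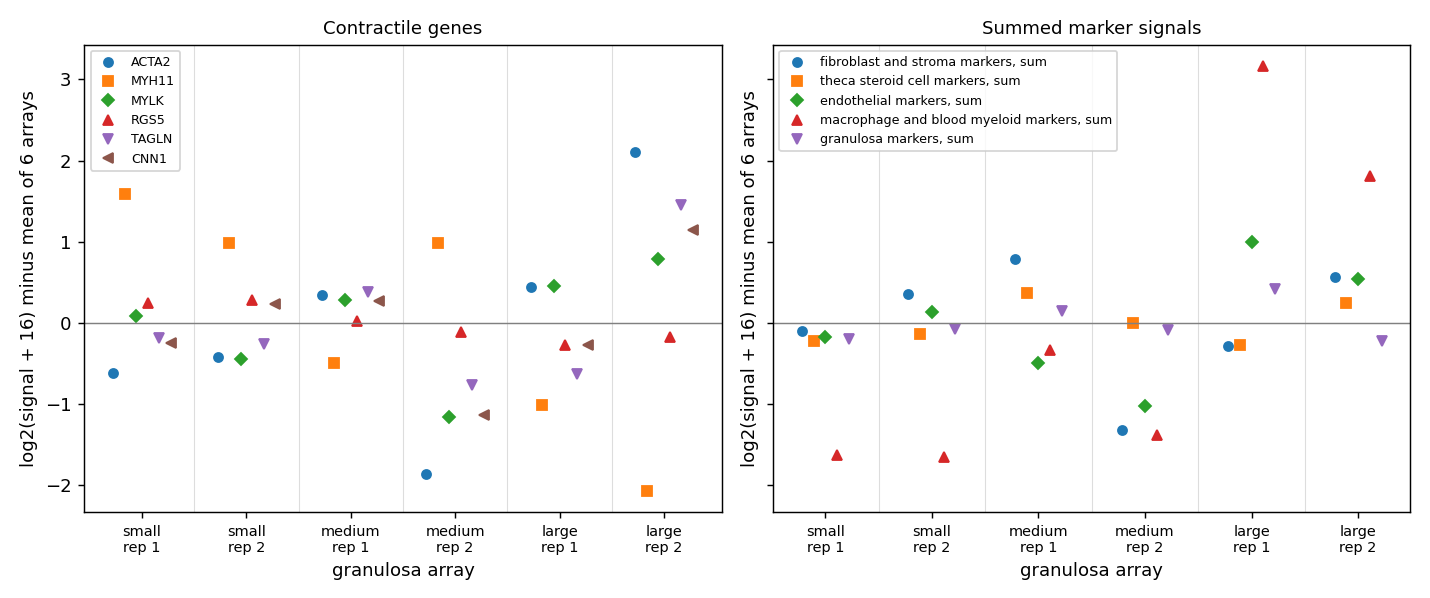
Log2 of signal + 16 on each of the 6 granulosa arrays, minus the mean of those arrays, for the 6 contractile genes (left) and for summed marker signals (right). MYH11 is highest in small replicate 1 and lowest in large replicate 2, where ACTA2, TAGLN and CNN1 are at their highest, and the myeloid sum is highest in both large arrays.

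Within theca no contractile gene was called between sizes. In large against small theca limma called 0 of the 6, where 0.0348% of all tested probe sets were called, and 1 of the 6 had an unadjusted p under 0.05, as did 10.2% of all probe sets. In medium against small theca it called 0 of the 6, with 0.0116% of all probe sets called, and 1 had an unadjusted p under 0.05 (6.2% of all). In large against medium theca it called 0 of the 6, with 0% of all probe sets called, and 0 had an unadjusted p under 0.05 (3.13% of all). TAGLN was the gene with the unadjusted p under 0.05 both times. It was 1.70 ± 0.55 higher in large than in small theca, with a 95% interval from 0.52 to 2.89 (adjusted p = 0.345), and 1.50 ± 0.55 higher in medium than in small theca (adjusted p = 0.799). TAGLN signals were 2393.7 to 3968.9 on the 4 medium and large theca arrays and 1088.6 and 988.0 on the small ones. The share of all probe sets that separate these arrays was not counted.

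The remaining genes differed less across theca sizes. In large against small theca CNN1 gave 1.30 ± 0.64 (interval -0.06 to 2.66), ACTA2 0.75 ± 0.60 (interval -0.54 to 2.05) and MYLK 0.42 ± 0.42 (interval -0.47 to 1.31). RGS5 gave -0.28 ± 0.32 (interval -0.95 to 0.40) and MYH11 -0.07 ± 0.50 (interval -1.14 to 1.0). The intervals leave room for changes of 2-fold or more in ACTA2, MYH11, MYLK and CNN1. Small theca includes the array with the shifted GAPDH ratio, and without it the value was 2.24 for CNN1 and 1.77 for TAGLN. In theca the fibroblast and stroma sum was 24224 to 27541 in large and 27343 to 32239 in small follicles, and the endothelial sum 656 to 1090 against 1571 to 2108. The granulosa marker sum was 18110 and 26060 in large against 8148 and 9400 in small theca. Of its 10 genes 2 were called as rises, where 0.0348% of all tested probe sets were called in either direction. The part of these cell types in the differences was not tested.

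In the granulosa of medium against small follicles limma called 0 of the 6, with 0.0058% of all tested probe sets called, and 0 had an unadjusted p under 0.05 (3.37% of all). In large against medium granulosa it called 0 of the 6, where 0.679% of all probe sets were called, and 3 had an unadjusted p under 0.05 (11.6% of all): ACTA2, MYH11 and MYLK. The change from small to large follicles was set against that of the other layer in a test of the difference itself. For MYH11 the granulosa change minus the theca change was -2.75 ± 0.71 (interval -4.27 to -1.24, unadjusted p = 0.00162, adjusted p = 0.175). None of the 6 was called in this test, where 0.0116% of all probe sets were, and 1 had an unadjusted p under 0.05 (10.6% of all). A difference between the layers in the size change of MYH11 was therefore not established at this replication.

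**Figure D4:**
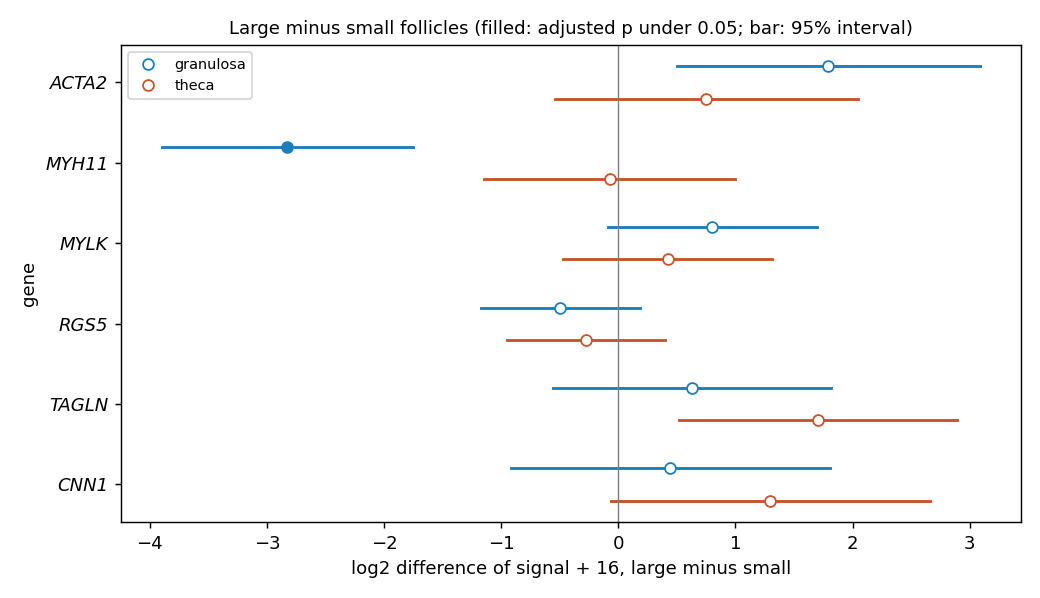
Log2 difference of signal + 16, large minus small follicles, for each gene in granulosa and in theca, with 95% intervals and a filled point for an adjusted p under 0.05. MYH11 in granulosa, at -2.83, is the only filled point.

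Other genes of the contractile apparatus were taken from 5 lists, and 54 of their 78 entries had a probe set. Of 15 tested smooth muscle filament and calponin-family genes 7 were called lower in granulosa over all sizes and 0 higher, with a median of -0.90 (8 of the 15 had an unadjusted p under 0.05, as did 38.7% of all tested probe sets). The share of all tested probe sets called lower was 11.2%. TPM2, a tropomyosin of muscle thin filaments, differed by -2.33 ± 0.29 (5.04-fold, adjusted p = 6.88e-05). CNN2, a calponin found outside smooth muscle too, differed by -2.32 ± 0.26 (adjusted p = 3.06e-05). LMOD1, which nucleates actin filaments in smooth muscle, differed by -2.29 ± 0.37 (adjusted p = 0.000656) and the crosslinker ACTN1 by -1.58 ± 0.29 (adjusted p = 0.00155). The ACTN1 call was lost when its probe sets were averaged (-0.60, adjusted p = 0.109). LMOD1 read 3.6 to 36.1 in granulosa and 65.1 to 362.9 in theca. Its granulosa mean at each size lay under the filter limit of 22.5, so it was tested only through its theca signals. The size of its difference therefore depends on the pseudocount.

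In large against small granulosa CNN2 rose by 1.98 ± 0.46 (adjusted p = 0.0379), the only call in that list, where 1.82% of all probe sets rose. Its signals were 9.0 and 49.4 in small and 173.0 and 118.1 in large granulosa. The call was lost in 10 of the 19 alternatives, at values of 1.19 to 2.68, among them without granulosa small replicate 1 (1.28, adjusted p = 0.321), granulosa large replicate 1 (1.73, adjusted p = 0.266) or 2 (2.22, adjusted p = 0.0509), or theca medium replicate 1 or 2 (adjusted p = 0.0595 each). CNN2 and MYH11 were thus called in opposite directions in the same comparison.

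Of 7 tested pericyte and mural cell genes other than RGS5, 1 was called lower over all sizes and 1 higher in granulosa, close to the 11.2% and 13.6% of all tested probe sets, and their median was -0.17. KCNJ8, a potassium channel subunit of mural cells, differed by -1.53 ± 0.24 (adjusted p = 0.000563). NDUFA4L2, which mural cells share with cells low in oxygen, was higher in granulosa by 1.62 ± 0.30 (adjusted p = 0.00166). It read 37.8 to 220.6 in granulosa and 5.8 to 30.2 in theca. Its theca mean at each size lay under the filter limit, so NDUFA4L2 was tested only through its granulosa signals. The size of this difference depends on the pseudocount. PDGFRB, the receptor through which pericytes are recruited, gave -0.48 ± 0.22 (adjusted p = 0.122), with signals of 7.9 to 40.5 in granulosa and 24.3 to 72.3 in theca.

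Of 8 tested receptors and ligands of contraction and relaxation 4 were called lower and 1 higher (median -0.59), where 11.2% of all tested probe sets were called lower and 13.6% higher. AGTR1, the angiotensin receptor, differed by -2.55 ± 0.21 (adjusted p = 1.85e-06) and EDNRA, the endothelin receptor of smooth muscle, by -2.28 ± 0.21 (adjusted p = 4.39e-06). The guanylate cyclase subunits that sense nitric oxide, GUCY1B1 (-1.06 ± 0.20) and GUCY1A1 (-0.95 ± 0.22), were the other pair called lower, and the higher one was the ligand EDN2 (0.87 ± 0.24, adjusted p = 0.0165). AGTR1 was called lower in granulosa within each size. Its granulosa signals were 2.9 to 23.5, under the filter limit of 22.5 but for 1 array. The granulosa mean log2 value lay under the limit at each size, so AGTR1 was tested only through its theca signals. Its p-values and calls are therefore no independent support for a layer difference. The AGTR1 difference over all sizes ran from -3.66 with a pseudocount of 1 to -1.48 with 64.

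Of 11 tested genes of serum response factor, myocardin and TGF-beta control 5 were called lower in granulosa and 1 higher (median -0.56), beside the same 11.2% and 13.6% of all tested probe sets. KLF4, a transcription factor that restrains smooth muscle genes in mice, differed by -1.36 ± 0.22 (adjusted p = 0.000569) and the receptor TGFBR2 by -1.35 ± 0.22 (adjusted p = 0.000728). The ligands TGFB2 and TGFB3 differed by -1.32 ± 0.20 (adjusted p = 0.00041) and -1.29 ± 0.21 (adjusted p = 0.000639). TGFB3 read 8.4 to 30.8 in granulosa and 52.0 to 96.9 in theca, and TGFB2 7.3 to 71.3 against 75.8 to 115.7. In granulosa the mean log2 value lay under the filter limit at each size for TGFB3 and in small follicles for TGFB2. TGFB3 was thus tested only through its theca signals. The size of the TGFB2 and TGFB3 differences therefore depends on the pseudocount. SRF itself gave 0.07 ± 0.24 (adjusted p = 0.855), at signals of 5.5 to 43.4. TGFB1, a ligand that induces smooth muscle genes, was the gene called higher in granulosa (1.12 ± 0.26, adjusted p = 0.00693).

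Of 7 tested non-muscle counterparts 2 were called lower and 1 higher in granulosa, with 11.2% and 13.6% of all tested probe sets so called, and their median was 0.19. The lower ones were RGS16 (-1.39 ± 0.19, adjusted p = 0.000183) and RGS10 (-0.79 ± 0.26, adjusted p = 0.0366), both regulators of G-protein signalling like RGS5, and the higher one TAGLN2, the transgelin of non-muscle cells (1.02 ± 0.30, adjusted p = 0.0228). The RGS10 call was lost in 12 of the 19 alternatives (adjusted p up to 0.105) and the TAGLN2 call in 6 (adjusted p up to 0.0764). RGS10 rose from small to large granulosa by 2.50 ± 0.44 (adjusted p = 0.0103), where 1.82% of all tested probe sets were called as rises. The call was lost without granulosa small replicate 1 (2.22) or 2 (2.79) and without granulosa large replicate 1 (1.77). Without both arrays that stood apart it was lost too (1.77). RGS10 read 33.4 and 57.2 in small, 58.4 and 31.1 in medium and 552.1 and 188.6 in large granulosa. The myeloid marker sum there was 421 and 415, 1055 and 501, and 12060 and 4706 in turn. The part of myeloid cells in the rises of RGS10 and CNN2 was not tested. ACTB, cytoplasmic actin, gave 0.13 ± 0.18 (adjusted p = 0.642) between the layers, where ACTA2 gave -3.53.

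**Figure D5:**
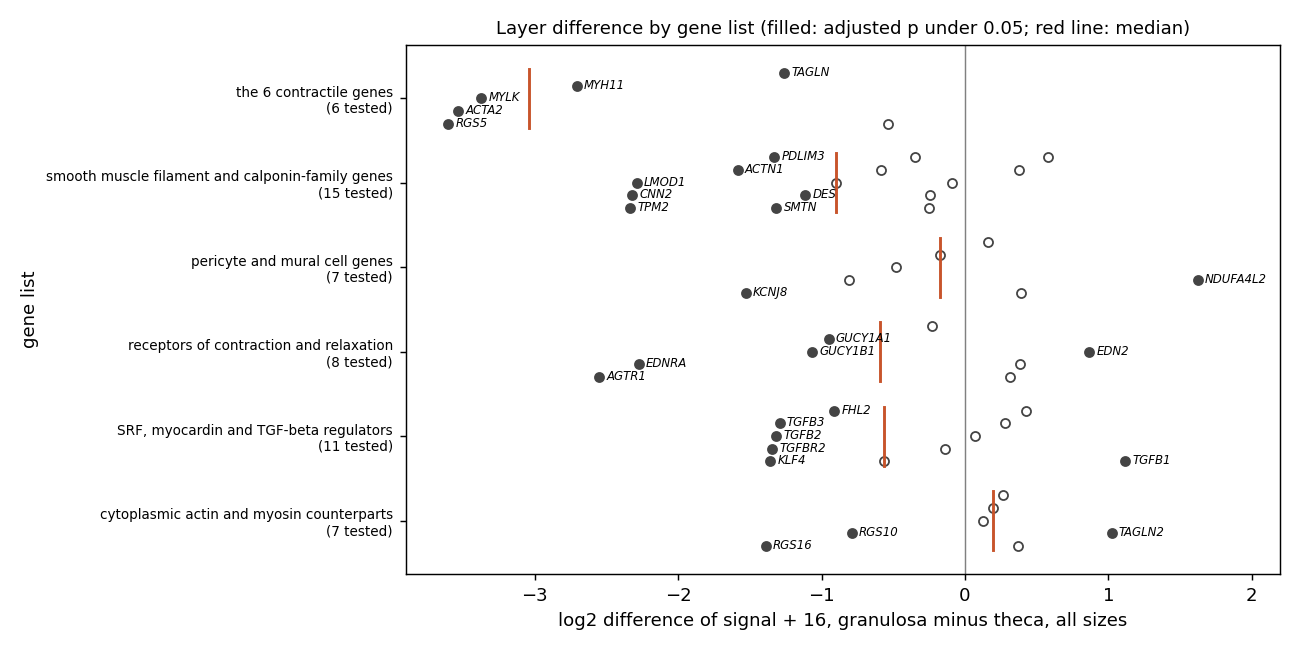
Log2 difference of signal + 16, granulosa minus theca over all sizes, for each tested gene of the 6 contractile genes and the 5 lists, with filled points for an adjusted p under 0.05 and a red line at the median of each list. The contractile genes have a median of -3.04, the filament list -0.90 and the non-muscle counterparts 0.19.

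The genes whose profiles lay nearest to each contractile gene were found among 7879 other tested genes. The measure was the root mean square (RMS) difference of log2 values over the 12 arrays, each gene centred on its mean, and it is dominated by the gap between the layers. The nearest to MYLK were FILIP1L (0.28), A2M (0.34) and DCN (0.39), against a median of 1.81 over all genes. FILIP1L (0.59) and A2M (0.62) were also nearest to ACTA2, with OLFML3 (0.64). RGS5 had NR2F2 (0.29), SH3BGR (0.38) and LPL (0.38) nearest, an order that rests on the pseudocount of 16 because the granulosa signals of RGS5 were under the filter limit. The nearest to MYH11 were OTULINL (0.73), GSTM3 (0.77) and SERPING1 (0.78), against a median of 1.71. SERPING1 read 567.2 and 813.9 in small, 115.7 and 131.0 in medium and 226.7 and 126.0 in large granulosa, so that its medium and large arrays overlapped, unlike those of MYH11. TAGLN was nearest to RBPMS (0.38), SCHIP1 (0.40) and PSAT1 (0.49), and CNN1 to SQOR (0.43), QPRT (0.46) and FXYD1 (0.48).

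Among themselves the contractile genes formed no single profile. By the same measure ACTA2 and MYLK were nearest to each other (0.52), followed by TAGLN and CNN1 (0.58). MYH11 was 1.35 from MYLK and 1.79 from both ACTA2 and CNN1. Over the 6 theca arrays alone ACTA2 and MYLK (0.28) and MYH11 and MYLK (0.32) were closest, and RGS5 and CNN1 (1.04) farthest apart.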

How the data were processed

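Total RNA of pooled bovine follicles was labelled with biotin and read on Affymetrix bovine arrays, per the labels. The authors deposited 1 linear signal intensity for each probe set of an array, already scaled: the 2% trimmed mean was 125.03 to 125.04 on every array. Which software, settings and genome build the submitters used is not given in the sources used here. Calls of presence were not analysed. Groups came from the sample titles, since the description field names theca for all 12 samples. All columns matched a sample.

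After 112 control probe sets were left out, log2(signal + 16) was modelled by limma 3.58.1 (R 4.3.3) as 6 group means over 12 arrays (6 residual and 7.92 prior degrees of freedom). A probe set was tested if the mean of at least 1 group exceeded the 40th percentile, and p-values were adjusted by Benjamini-Hochberg over 17236 probe sets within each of 11 contrasts. An exact permutation test of 2 against 2 arrays cannot go below 0.333. The number of arrays limits the precision. The brightest probe set stood for a gene. Named were the 6 genes, up to 4 called genes per list and contrast with the largest changes, and the 3 nearest profiles per gene; other named list members were chosen after their values were seen. Members and lists were chosen with earlier results of these data known, and symbols were updated through RefSeq's table for ARS-UCD2.0. The fit was tested on simulated data. Figures used matplotlib 3.10.9 under Python 3.11.15. 1 further gene list is not reported here.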

Additional observations from a re-analysis of the deposited data

How the results depend on the processing

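The alternatives were pseudocounts of 1 and 64, no filter, quantile normalization, a replicate block, the mean over probe sets, leaving out each array in turn, and leaving out both arrays that stand apart. The number of contractile genes called kept within 1.5 times of its main value in each contrast, except that it ran from 0 to 1 when single arrays were left out in large against small granulosa (MYH11 lost) and in large against medium granulosa (ACTA2 gained). The cause was not tested. Whether replicate numbers pair the samples is not known. Same-numbered deviations correlated between -0.335 and 0.402 over 15 pairs of groups, 6 of them over 0.1. These values do not settle it, since pairs of granulosa and theca of the same size were not examined apart. With the replicate number as a block the layer comparison called 5 genes over all sizes, 3 among small follicles, 4 among medium and 4 among large ones, and large against small granulosa called 1, and no call of the 6 genes changed.

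Values that were not called changed sign in part. Without both arrays that stand apart CNN1 between the layers was 0.012 over all sizes and 0.072 in large follicles, and MYH11 in large against small theca 0.070. In the layer difference of the size change MYLK was -0.084 with probe sets averaged, and RGS5 0.076 with a pseudocount of 64. Leaving out single arrays, CNN1 ran from -0.72 to 1.16 between the layers in small and from -1.35 to 0.072 in large follicles, and from -1.80 to 0.085 in the layer difference. In theca, large against small gave -0.56 to 0.41 for MYH11; medium against small -0.12 to 0.14 for MYLK and -0.51 to 0.13 for RGS5; large against medium -0.054 to 0.29 for ACTA2, -0.19 to 0.77 for MYH11, -0.41 to 0.23 for RGS5, -0.10 to 0.51 for TAGLN and -0.19 to 0.82 for CNN1. In granulosa, large against small gave -0.41 to 1.67 for TAGLN and -0.27 to 1.15 for CNN1, and large against medium -0.44 to 1.64 for TAGLN. Medium against small granulosa gave -1.34 to 0.86 for ACTA2, -0.98 to 0.46 for MYLK, -0.55 to 0.61 for TAGLN and -1.13 to 0.27 for CNN1.

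The count of all probe sets called moved more. It was 4273 (2648 to 4844 over the alternatives) between the layers over all sizes, 1575 (501 to 2232) for small follicles, 1034 (360 to 1600) for medium and 760 (199 to 1013) for large ones. Between sizes it was 382 (0 to 635), 1 (0 to 12) and 117 (0 to 487) in granulosa for large against small, medium against small and large against medium. In theca it was 6 (0 to 607), 2 (0 to 247) and 0 (0 to 1), and 2 (0 to 268) for the layer difference. In large follicles 45.8% of the calls were higher in granulosa, 33.9% after quantile normalization, which moved the median difference from 0.12 to 0.017, and between 16.3% (without theca large replicate 2) and 64.9% (without granulosa large replicate 2) when single arrays were left out.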

Other observations

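The values below were picked after they were seen, and neither gene was called between sizes of theca. EDNRA read 205.8 and 332.7 in small and 144.3 and 95.8 in large theca (-1.05 ± 0.36, adjusted p = 0.363). DES, the intermediate filament protein of muscle, resembled CNN1 in its spread, with 223.8 and 73.4 in small theca and 53.1 and 316.0 in large granulosa.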
